A study of Mus musculus with 20 samples.

Results

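The lung response to HDE, an extract made from dust that had settled in swine barns, was examined in mice fed the control diet. This comparison set 6 mice given HDE against 4 mice given saline, 10 of the 20 mice of the series, and the mice were taken by their labels alone. All 10 were male wild-type C57BL/6J mice, 5 to 8 weeks old when obtained and caged 5 together, that had eaten a diet without docosahexaenoic acid (DHA) for 4 weeks, with high-oleic safflower oil in place of soybean oil. The HDE mice then received 50 µL of 12.5% HDE through the nose once, and the saline mice 50 µL of sterile saline, and the left lung was stored 5 h later, after the airways had been washed by lavage. The 10 other mice ate the DHA diet, 7 with HDE and 3 with saline, and are used below only where they are named. The lungs came from 3 experimental sets, and which set a mouse belonged to was not stated in the labels or the methods. Each sample is the left lung of 1 mouse, and mice that shared a cage cannot be told from the labels.

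Organic dust from barns carries endotoxin, peptidoglycan and other microbial products. Sensors such as the Toll-like receptors and CD14 bind these on macrophages and epithelium, and adaptor proteins and kinases pass the signal to NF-κB, a family of transcription factors held in the cytoplasm by IκB proteins. Released NF-κB switches on cytokines, chemokines, adhesion molecules and its own inhibitors within hours, and the chemokines draw neutrophils and monocytes from blood into the airspace.

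RNA was counted on the NanoString mouse Immunology panel, which counts color-coded probes bound to single RNA molecules, with no PCR step, and holds 547 probes for endogenous genes. A scaled count is the raw count of a probe after each lane was brought to the same geometric mean of the housekeeping genes Oaz1, Ppia, Rpl19 and Eef1g. The test took in the 354 genes whose scaled counts averaged 82 or more in these 10 mice. This average includes the HDE mice, so a gene near background in saline mice could enter through high HDE values alone. The shares of tested genes given below therefore depend in part on the response itself. Il15ra and Ccl4, at 82.03 and 82.24, were the lowest included, and Cd22 and Tyk2, at 81.04 and 81.69, were the highest left out. Raw counts over the endogenous probes totalled 129599 to 578569 in the HDE mice and 180874 to 401922 in the saline mice, and the negative control probes (mean plus 2 SD) reached 10.6 to 97.5 scaled counts in HDE lanes and 12.2 to 55.4 in saline lanes. Defining lung transcripts were present in every mouse, with Cxcl15, a chemokine of lung epithelium, at 5990.1 to 19647.0 scaled counts in HDE mice and 13839.7 to 24991.9 in saline mice, and Cdh5, the endothelial cadherin, at 755.4 to 2189.1 in HDE mice and 1108.0 to 2158.7 in saline mice. All values are of whole lung tissue, so that fewer cells of a type and less RNA per cell cannot be told apart.

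One mouse labelled HDE lay with or below the saline mice in most tested genes. In HDE mouse 6, 236 of the 354 tested genes (66.7%) lay below every saline mouse and 5 (1.41%) lay above every saline mouse. Its first principal component score was -20.6, against 10.85 to 16.1 in HDE mice 1 to 5 and -16.57 to -8.82 in the saline mice, on a component that held 70.43% of the variance. The mice fed the DHA diet, none of which enters the control diet comparison, gave 109 genes higher after HDE (31.1% of 351 tested) and 4 lower (1.14%). Over these 109 genes the median difference in log2(scaled count + 1) from the mean of the saline mice was 1.80, 1.58, 1.52, 1.90 and 1.79 in HDE mice 1 to 5 and -0.61 in HDE mouse 6. Each saline mouse, set against the other saline mice, lay at 0.34, 0.29, -0.24 and -0.39 over the same genes. Saline mice 3 and 4, the last 2 of these, carry the same date in their labels as HDE mouse 6. Over all 354 tested genes the same median was -0.49 in HDE mouse 6 and 0.35 to 0.75 in HDE mice 1 to 5. Over the 4 lower genes it was -0.41 in HDE mouse 6 and -1.22 to -0.74 in HDE mice 1 to 5. The saline mice lay at -0.17 to 0.37 there. HDE mouse 6 lay below every saline mouse in 3 of these 4 genes. HDE mouse 6 had the highest raw housekeeping level of the 10, a geometric mean of 6827 against 1009 to 4177 in the other HDE mice and 1785 to 5397 in the saline mice. The number of genes called in each list is given with the 10 mice as labelled and again without the library labelled HDE mouse 6. The second value was planned as 1 of the leave-out comparisons, and it is set beside the first because of these values. The cause was not tested.

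A second mouse stood apart in other genes. Rag1, which cuts antigen receptor genes in developing lymphocytes, had 12.8, 361.8, 5054.5, 201.1, 9.1 and 5.5 scaled counts in HDE mice 1 to 6 and 21.0, 66.2, 4.7 and 4.0 in the saline mice. The thymocyte markers on the panel summed to 13441.8 in HDE mouse 3, 1646.6 in HDE mouse 2, 945.5 in HDE mouse 4 and 336.3 to 459.7 in the other HDE mice, against 521.2 to 602.7 in the saline mice. HDE mouse 3 therefore carried thymocyte and T cell transcripts far above every other mouse, and it scored 15.75 on the second principal component, which Rag1 led, where the other mice lay between -8.76 and 2.95.

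Promoters are shown for the 5 higher genes with the smallest p among those that hold a motif bound by NF-κB, spelled GGG, then 2 bases of any kind, then TTTCC. They were picked for the motif. Between them by p ranked Il1b and Cd80, which lacked it, and Cd14 and Cd83, which had no promoter in the table used. Each is the 250 bases before the start of the gene in RefSeq (GRCm38.p6), 5′ to 3′ on the strand of the gene, with the motif in capitals on either strand. Cxcl3 (chr5:90785851-90786100, plus strand), Ccl20 (chr1:83116516-83116765, plus), Tnfaip3 (chr10:19015411-19015660, minus), Nfkbia (chr12:55492648-55492897, minus) and Cxcl1 (chr5:90890995-90891244, plus) read as follows.
Cxcl3: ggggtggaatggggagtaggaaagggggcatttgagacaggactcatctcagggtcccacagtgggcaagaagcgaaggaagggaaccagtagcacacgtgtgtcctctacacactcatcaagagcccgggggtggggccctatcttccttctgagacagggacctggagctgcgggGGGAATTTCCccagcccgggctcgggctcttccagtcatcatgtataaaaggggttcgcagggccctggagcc
Ccl20: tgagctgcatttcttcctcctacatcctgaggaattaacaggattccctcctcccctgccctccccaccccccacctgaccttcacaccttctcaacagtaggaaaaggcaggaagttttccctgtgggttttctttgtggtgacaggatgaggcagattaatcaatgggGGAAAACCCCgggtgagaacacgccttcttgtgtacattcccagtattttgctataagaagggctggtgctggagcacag
Tnfaip3: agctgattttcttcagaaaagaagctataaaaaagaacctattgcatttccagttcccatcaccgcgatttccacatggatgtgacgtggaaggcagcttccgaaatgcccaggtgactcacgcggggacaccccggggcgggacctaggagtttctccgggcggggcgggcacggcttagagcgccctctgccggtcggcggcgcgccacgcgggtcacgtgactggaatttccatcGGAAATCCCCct
Nfkbia: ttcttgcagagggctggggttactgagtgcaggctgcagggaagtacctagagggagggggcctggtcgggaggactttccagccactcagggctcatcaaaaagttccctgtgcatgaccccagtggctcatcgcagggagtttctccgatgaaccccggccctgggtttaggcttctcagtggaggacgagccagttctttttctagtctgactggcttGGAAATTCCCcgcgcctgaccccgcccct
Cxcl1: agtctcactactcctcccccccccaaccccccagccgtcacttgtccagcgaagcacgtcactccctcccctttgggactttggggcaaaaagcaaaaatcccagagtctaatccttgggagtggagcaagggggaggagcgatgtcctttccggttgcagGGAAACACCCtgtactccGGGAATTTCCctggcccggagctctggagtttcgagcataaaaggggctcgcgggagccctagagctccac
The motif ended 64 bases before the start in Cxcl3, 71 in Ccl20, 3 in Tnfaip3, 20 in Nfkbia and 62 in Cxcl1, which held 2 copies. Of the 48 genes called higher below, 37 (77.1%) matched the promoter table by symbol or synonym, and 11 of these held the motif (29.7%), against 8 of 226 promoters of the tested genes that were not called higher (3.54%) and 447 of the 27025 promoters in the whole table (1.65%). Without HDE mouse 6, 15 of 118 promoters of higher genes held it (12.7%), and over all tested genes 19 of 263 did (7.22%). Fewer than 80% of the genes in each of these groups of tested genes had a promoter there, so a comparison of the shares is void, and the matches are given only as a description of these windows.

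With all 10 mice, 48 of 354 genes rose after HDE (13.6%) and 3 fell (0.847%) at an adjusted p under 0.05 in edgeR's quasi-likelihood test, and 119 were higher (33.6%) and 10 lower (2.82%) with an unadjusted p no greater than 0.05. Without HDE mouse 6, 148 rose (41.8%) and 6 fell (1.69%), among them all 48 and all 3. Over all tested genes the median log2 fold change was 0.48 with 10 mice and 0.59 without HDE mouse 6. Scaled by TMM, which sets the bulk of the genes equal, these medians were 0.03 and 0.01, and the calls became 39 higher (11%) and 5 lower (1.41%) with 10 mice and 82 higher (23.2%) and 66 lower (18.6%) without HDE mouse 6. All 48 higher genes had a log2 fold change above 0 with TMM, and 39 of them were called. With HDE mouse 6 kept, leaving out any 1 saline mouse gave 0 calls in either direction in edgeR, with 83 to 101 genes higher and 5 to 10 lower when p was not adjusted, and all 48 genes lay above 0 in each of these fits. With HDE mouse 6 and any 1 saline mouse left out together, 122 to 141 genes were called higher and 4 to 6 lower, among them all 48 and all 3. The labels carry 2 prefixes, each a date and a number, with dates in different years. They are called cartridges here, the trays of lanes read together, a word that the labels do not use. Tray and date cannot be told apart. The 48 genes had a median log2 fold change of 2.49 on cartridge 1 (HDE mice 1 and 2, saline mice 1 and 2), where 47 of the 48 were among 103 higher (29.1%) and 8 lower (2.26%) calls. On cartridge 2 without HDE mouse 6 (HDE mice 3 to 5, saline mice 3 and 4) it was 2.96, and all 48 were among 131 higher (37.0%) and 3 lower (0.847%) calls. With HDE mouse 6 kept, cartridge 2 alone gave 0 calls (0.0%), and 47 genes higher (13.3%) and 1 lower (0.282%) when p was not adjusted. The 48 genes were chosen with all 10 mice, so finding them again in parts of the same mice is no independent test.

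The heat map of the called genes shows the same split mouse by mouse. In all 48 higher genes, which were chosen by the test on these mice, HDE mice 1 to 5 each lay above every saline mouse. HDE mouse 6 lay above every saline mouse in 1 of the 48, within the saline range in 20 and below it in 27. Over all 354 genes it lay above every saline mouse in 1.41% and below in 66.7%, so its low place is not particular to the 48. The highest HDE value of a gene fell to mouse 4 in 19 genes and to mouse 1 in another 19, and the lowest among HDE mice 1 to 5 fell to mouse 3 in 22. Over all 354 genes, 5 or 6 HDE mice lay above every saline mouse in 124 (35.0%).

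**Figure D1:**
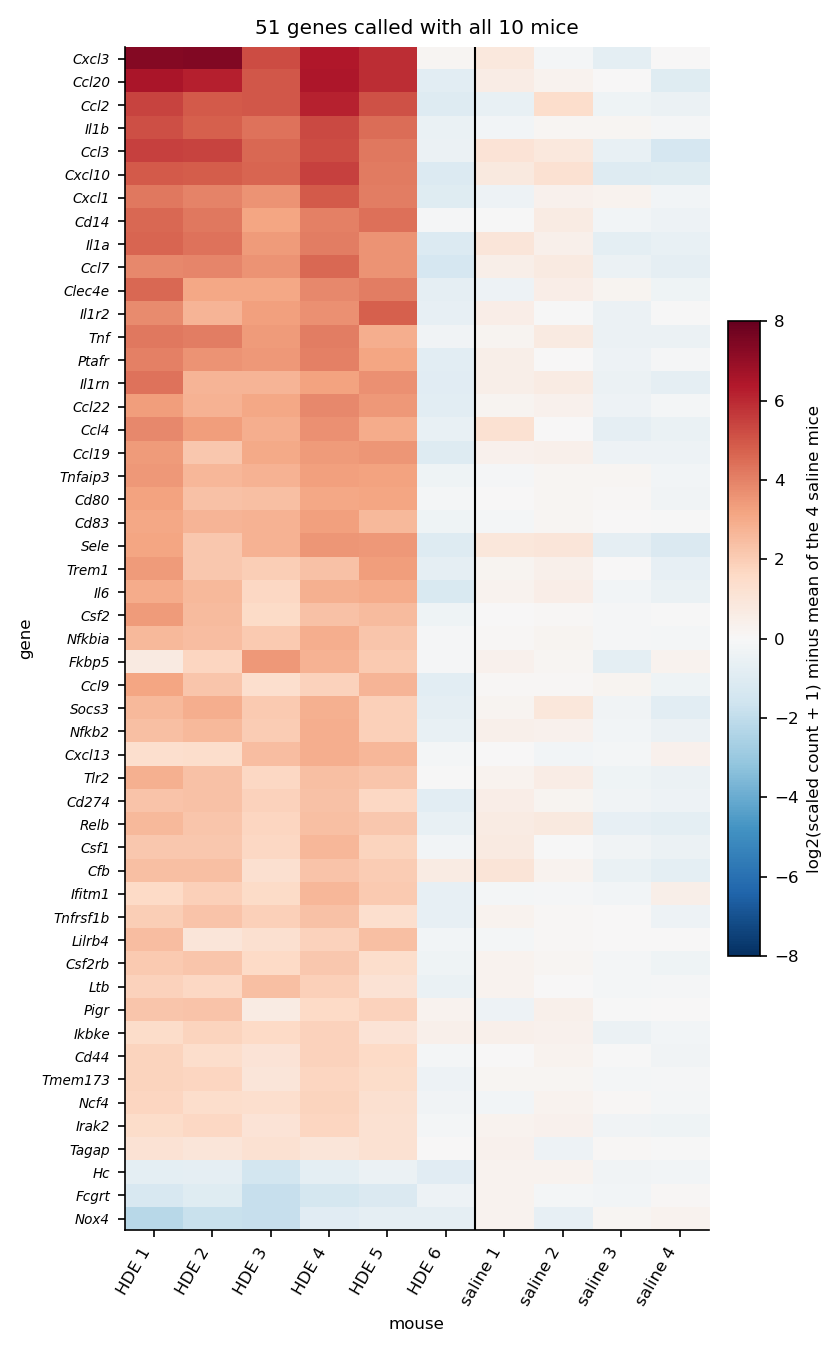
Each row is 1 of the 51 genes called with all 10 mice, ordered by log2 fold change, and each column 1 mouse, with color for log2(scaled count + 1) minus the mean of the 4 saline mice. HDE mice 1 to 5 are above the saline mice in all 48 upper rows, HDE mouse 6 is not above them except in Ikbke, and Hc, Fcgrt and Nox4 at the bottom are lower in all 6 HDE mice. HDE mouse 6 lay below every saline mouse in 66.7% of all tested genes.

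Sensors of microbial products were represented by 14 tested genes. Of these, 4 rose with all 10 mice and 7 without HDE mouse 6, beside 13.6% and 41.8% of all tested genes. With TMM and without that mouse, 5 were higher and 3 lower, beside 23.2% and 18.6% of all tested genes. The median log2 fold change of the list, 0.51, was close to the 0.48 of all tested genes. Cd14, the coreceptor that hands endotoxin to Toll-like receptor 4, had 6655.1, 5014.1, 2475.9, 4486.8 and 5771.2 scaled counts in HDE mice 1 to 5, 253.5 in HDE mouse 6, and 270.5, 428.3, 236.3 and 200.9 in the saline mice. The first 5 HDE mice did not overlap with saline, and mouse 6 lay inside the saline range. Cd14 rose 14.5-fold with all 10 mice (log2 3.86 ± 0.75 SE, edgeR adjusted p = 0.0214) and 17.2-fold without HDE mouse 6 (adjusted p = 8.4e-06). Clec4e, a receptor for fungal and mycobacterial glycolipids known as Mincle, had 383.0 to 1087.1 scaled counts in HDE mice 1 to 5, 26.3 in mouse 6 and 33.1 to 64.1 in saline mice (12.0-fold, adjusted p = 0.0214). Tlr2, which senses bacterial lipoproteins and peptidoglycan products, rose 4.21-fold (adjusted p = 0.0263), and Trem1, an amplifying receptor of neutrophils and monocytes, rose 5.73-fold (adjusted p = 0.0331). Tlr4 itself had 207.9 to 337.9 scaled counts in HDE mice 1 to 5, 153.7 in mouse 6 and 222.1 to 276.5 in saline mice, a log2 fold change of 0.14 ± 0.27 (SE) that missed the threshold (edgeR adjusted p = 0.730) and was -0.30 with TMM scaling. The scavenger receptor Marco of macrophages was called without HDE mouse 6 (2.17-fold, adjusted p = 0.00892), and Cd36, a fatty acid transporter and scavenger receptor, had a log2 fold change of -0.75 ± 0.27 (adjusted p = 0.0777) with 10 mice and -0.70 ± 0.29 (adjusted p = 0.0686) without HDE mouse 6. Cd36 was called lower with TMM (-1.11, adjusted p = 0.0451), on cartridge 1 alone (-1.10, adjusted p = 0.0401) and, without HDE mouse 6, with cartridge as a block (-0.75, adjusted p = 0.0466) and with TMM (-1.27, adjusted p = 0.0108).

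Adaptors and kinases carry the signal below the sensors. Of 23 tested genes, 2 rose with all 10 mice and 8 without HDE mouse 6, smaller shares than the 13.6% and 41.8% of all tested genes (median log2 fold change 0.37 with 10 mice, -0.07 with TMM). With TMM and without HDE mouse 6, 5 were higher and 4 lower. Ikbke, an inducible kinase of the IκB kinase family, had 182.6, 223.4, 204.1, 237.0 and 138.8 scaled counts in HDE mice 1 to 5, 86.9 in mouse 6 and 85.7, 84.8, 46.3 and 55.2 in saline mice, the 1 tested gene (0.282% of 354) in which all 6 HDE mice lay above every saline mouse, with mouse 6 above the nearest saline mouse by about 1 scaled count. Ikbke was 2.63-fold higher with the 10 mice (log2 1.40 ± 0.34 SE, edgeR adjusted p = 0.0269), and without HDE mouse 6 it was 2.91-fold higher (adjusted p = 0.0008). Irak2, a kinase of the Toll-like and interleukin-1 receptor complex, rose 2.39-fold (adjusted p = 0.0367). Myd88, the adaptor of that complex, missed the threshold with 10 mice (adjusted p = 0.0777) and rose 2.63-fold without HDE mouse 6 (adjusted p = 0.00314), and so did Syk, the kinase under Clec4e (2.37-fold, adjusted p = 0.00062).

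Of the genes of NF-κB and its inhibitors, 4 of 8 were higher with all 10 mice and 8 of 8 without HDE mouse 6. The shares of all tested genes were 13.6% and 41.8%. The median log2 fold change of the list was 1.79 (1.30 with TMM). Tnfaip3, which encodes the deubiquitinase A20 that shuts the pathway down, had 1847.5, 1061.3, 1186.6, 1629.0 and 1551.7 scaled counts in HDE mice 1 to 5, 134.4 in mouse 6 and 157.8, 190.4, 184.5 and 144.2 in saline mice. Mouse 6 lay below all 4 saline mice. The log2 fold change was 2.87 ± 0.58 (SE, 7.30-fold, edgeR adjusted p = 0.0214) with all 10 mice and 3.10 ± 0.24 (8.60-fold, adjusted p = 2.8e-06) without HDE mouse 6. Nfkbia, the inhibitor IκBα, had 1928.9, 1776.9, 1351.4, 2376.7 and 1489.3 scaled counts in HDE mice 1 to 5, 297.1 in mouse 6 and 339.7, 367.3, 299.1 and 284.9 in saline mice. Nfkbia rose 4.76-fold with all 10 mice (log2 2.25 ± 0.47 SE, edgeR adjusted p = 0.0214) and 5.53-fold without HDE mouse 6 (adjusted p = 9.1e-06). Both inhibitors carry the motif shown above within 30 bases of their start. The subunits Nfkb2 (4.43-fold, adjusted p = 0.0287) and Relb (3.64-fold, adjusted p = 0.0486) of the slower noncanonical branch rose with all 10 mice. The canonical subunits Nfkb1 and Rela, with the nuclear regulators Nfkbiz and Bcl3, passed the test without HDE mouse 6, at 2.08-fold, 1.91-fold, 2.50-fold and 3.84-fold in the order named, and their adjusted p with all 10 mice was 0.0817, 0.0904, 0.0879 and 0.0752.

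Of the proinflammatory cytokines, 7 of 10 tested genes rose with all 10 mice and 8 of 10 without HDE mouse 6, beside 13.6% and 41.8% of all tested genes. Il1b, the main secreted interleukin-1, had 4690.0, 3593.7, 2620.4, 5033.5 and 2877.1 scaled counts in HDE mice 1 to 5, 91.6 in mouse 6 and 109.7, 147.9, 148.4 and 120.8 in saline mice. The values of HDE mice 1 to 5 lay more than 10-fold above every saline value, and mouse 6 lay below all 4. Il1b was 23.9-fold higher with the 10 mice (log2 4.58 ± 0.85 SE, edgeR adjusted p = 0.0214), and without HDE mouse 6 it was 28.5-fold higher (adjusted p = 1.5e-06). Il1a, the cell-associated interleukin-1, had 477.9 to 1180.6 scaled counts in HDE mice 1 to 5, 20.4 in mouse 6 and 25.9 to 90.2 in saline mice (13.0-fold, adjusted p = 0.0263). Tnf, which activates endothelium and leukocytes, had 620.9, 579.9, 358.8, 570.4 and 251.4 scaled counts in HDE mice 1 to 5, 25.9 in mouse 6 and 37.6, 53.8, 23.5 and 22.9 in saline mice. The log2 fold change was 3.55 ± 0.76 (SE, 11.7-fold, edgeR adjusted p = 0.0214) with all 10 mice and 3.80 ± 0.40 (13.9-fold, adjusted p = 2.2e-05) without HDE mouse 6. Il6, the inducer of acute phase proteins, had 104.0 to 260.3 scaled counts in HDE mice 1 to 5, 13.0 in mouse 6 and 21.4 to 45.5 in saline mice (5.41-fold, adjusted p = 0.0366). Growth factors of myeloid cells and lymphoid tissue also rose, Csf2 (GM-CSF) 5.21-fold, Csf1 (M-CSF) 3.55-fold and Ltb (lymphotoxin beta) 3.13-fold, with adjusted p = 0.0269, 0.0305 and 0.0367 from edgeR in the same order. Lif, a cytokine of the interleukin-6 family, was called without HDE mouse 6 (3.71-fold, adjusted p = 0.00560). Il18 and Mif, which cells hold in store before any stimulus, were not called in either comparison. Mif had a log2 fold change of 0.82 ± 0.42 (adjusted p = 0.176), and it was called higher when cartridge was a block and HDE mouse 6 was left out (1.06, adjusted p = 0.0117) and on cartridge 2 without that mouse (1.17, adjusted p = 0.0402). Il18 had 31.7 to 245.2 scaled counts in HDE mice and 95.5 to 314.1 in saline mice (adjusted p = 0.386).

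The genes that oppose these cytokines were tested as a list of their own. Of 15 tested antagonist and feedback genes, 4 rose with all 10 mice and 11 without HDE mouse 6, beside 13.6% and 41.8% of all tested genes. Their median log2 fold change was 0.97 (0.47 with TMM). Il1rn, the interleukin-1 receptor antagonist, had 2030.0, 662.3, 655.4, 961.0 and 1282.2 scaled counts in HDE mice 1 to 5, 52.7 in mouse 6 and 141.3, 158.3, 73.8 and 61.7 in saline mice. Il1rn rose 8.68-fold with all 10 mice (log2 3.12 ± 0.78 SE, edgeR adjusted p = 0.0287) and 10.4-fold without HDE mouse 6 (adjusted p = 0.00011). Il1r2, the decoy receptor for interleukin-1, had 164.9 to 696.9 scaled counts in HDE mice 1 to 5 and 14.9 in mouse 6, against 17.3 to 36.1 in saline mice (11.9-fold, adjusted p = 0.0241), and its saline values were above the negative control level in 1 of 4 mice. Tnfrsf1b, the second receptor of TNF, rose 3.40-fold (adjusted p = 0.0347), and Socs3, which blocks signaling by interleukin-6, rose 4.43-fold (adjusted p = 0.0399).

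The genes with the highest loadings on the first principal component were the chemokines Cxcl3, Ccl20, Ccl2, Cxcl10 and Ccl3. Among the chemokines of neutrophils, 2 of 4 rose in both comparisons, beside 13.6% and 41.8% of all tested genes. Cxcl3 had 2031.5, 2136.0, 462.7, 1031.6 and 748.2 scaled counts in HDE mice 1 to 5, 12.6 in mouse 6 and 21.0, 10.3, 6.3 and 11.9 in saline mice. None of the saline values was above the negative control level of its lane, so the fold change rests on counts at background. Cxcl3 was 87.9-fold higher with the 10 mice (log2 6.46 ± 1.20 SE, edgeR adjusted p = 0.0214), and without HDE mouse 6 it was 107-fold higher (adjusted p = 8.4e-06). Cxcl1, the keratinocyte chemoattractant, had 1051.6, 896.4, 677.0, 1736.3 and 952.3 scaled counts in HDE mice 1 to 5, 27.5 in mouse 6 and 42.1, 70.3, 69.1 and 47.7 in saline mice. The log2 fold change was 3.95 ± 0.84 (SE, 15.5-fold, edgeR adjusted p = 0.0214) with all 10 mice and 4.21 ± 0.33 (18.5-fold, adjusted p = 3.1e-06) without HDE mouse 6. The other members of this list, Ppbp of platelets and Cxcl15 of epithelium, did not pass the test: Ppbp had 100.2 to 1237.9 scaled counts in HDE mice and 545.4 to 2364.3 in saline mice (log2 fold change -1.02 ± 0.63), and Cxcl15 had a log2 fold change of -0.44 ± 0.32. Both had ranges that overlapped between the groups.

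**Figure D2:**
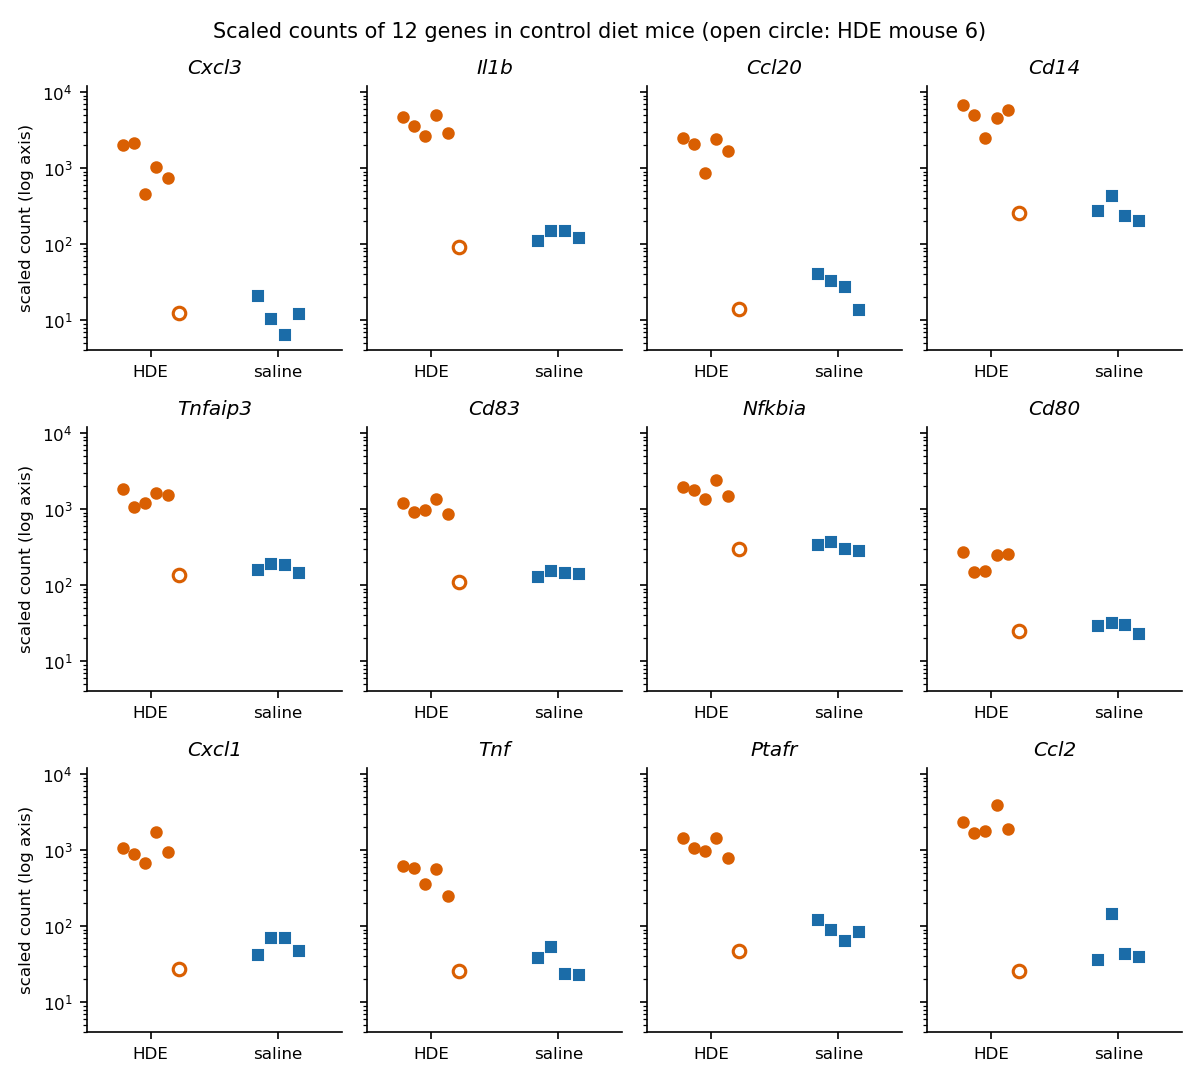
Scaled counts (log axis) of the 12 higher genes with the smallest p, 1 point per mouse, HDE left and saline right, with HDE mouse 6 as an open circle. In every panel the 5 filled circles lie above all 4 saline mice and the open circle lies among or below them, as for Il1b, at 2620.4 to 5033.5 in HDE mice 1 to 5, 91.6 in HDE mouse 6 and 109.7 to 148.4 in saline mice.

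Of 8 tested chemokines of monocytes, 5 rose with all 10 mice and 6 without HDE mouse 6 (median log2 fold change 2.60, 2.10 with TMM). The shares of all tested genes were 13.6% and 41.8%. Ccl2, which releases monocytes from bone marrow and draws them into tissue, had 2340.8, 1675.8, 1764.7, 3883.0 and 1904.6 scaled counts in HDE mice 1 to 5, 25.9 in mouse 6 and 36.1, 142.8, 42.4 and 39.8 in saline mice. Ccl2 rose 29.6-fold with all 10 mice (log2 4.89 ± 1.06 SE, edgeR adjusted p = 0.0214) and 35.5-fold without HDE mouse 6 (adjusted p = 2e-05). Saline mouse 2 was the highest of its group for this gene. Ccl3, a macrophage inflammatory protein, had 808.5 to 1882.2 scaled counts in HDE mice 1 to 5, 30.3 in mouse 6 and 15.9 to 88.7 in saline mice (23.1-fold, adjusted p = 0.0214). Ccl7, a relative of Ccl2 for the same receptor, had 233.3 to 476.6 scaled counts in HDE mice 1 to 5, 6.7 in mouse 6 and 10.9 to 31.0 in saline mice (12.7-fold, adjusted p = 0.0263). Ccl4, a close relative of Ccl3, had 105.2 to 207.5 in HDE mice 1 to 5, 8.6 in mouse 6 and 7.8 to 33.1 in saline mice (8.25-fold, adjusted p = 0.0287). No saline value of Ccl7 or Ccl4 was above the negative control level of its lane. Ccl9 rose 4.47-fold (adjusted p = 0.0366), and Ccl5, a chemokine of T cells and monocytes, was called without HDE mouse 6 (2.18-fold, adjusted p = 0.0110).

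Chemokines of lymphocytes and dendritic cells gave 5 of 8 with all 10 mice and 6 without HDE mouse 6 (median log2 fold change 2.66, 2.13 with TMM). All tested genes gave 13.6% and 41.8%. Ccl20, the ligand of CCR6 on dendritic cells and T cells, had 2515.1, 2098.7, 855.7, 2410.1 and 1662.3 scaled counts in HDE mice 1 to 5, 14.1 in mouse 6 and 40.6, 33.1, 27.5 and 13.4 in saline mice. Ccl20 was 56.3-fold higher with the 10 mice (log2 5.81 ± 1.13 SE, edgeR adjusted p = 0.0214), and without HDE mouse 6 it was 68.2-fold higher (adjusted p = 2.8e-06). Its saline values were above the negative control level in 2 of 4 mice, so the size of the fold change is uncertain, and with the background subtracted the log2 fold change was 9.12 (adjusted p = 0.0131). Cxcl10, an interferon-induced chemokine of activated T cells, had 1379.0, 1316.7, 1173.9, 2046.5 and 806.5 scaled counts in HDE mice 1 to 5, 20.4 in mouse 6 and 76.7, 105.5, 21.2 and 22.9 in saline mice. The log2 fold change was 4.33 ± 1.02 (SE, 20.0-fold, edgeR adjusted p = 0.0263) with all 10 mice and 4.60 ± 0.55 (24.2-fold, adjusted p = 5.8e-05) without HDE mouse 6. Ccl22, a ligand of CCR4 made by dendritic cells and macrophages, had 795.3 to 1656.6 scaled counts in HDE mice 1 to 5, 62.5 in mouse 6 and 84.8 to 143.8 in saline mice (8.43-fold, adjusted p = 0.0214). The chemokines of lymphoid tissue also rose, Ccl19 7.45-fold (adjusted p = 0.0275) and Cxcl13 4.27-fold (adjusted p = 0.0287). Cxcl13 differed among the responding mice by cartridge, at 157.7 and 167.6 in HDE mice 1 and 2 and 347.4 to 473.4 in HDE mice 3 to 5, with saline mice at 61.6 and 52.8 on cartridge 1 and 55.7 and 78.1 on cartridge 2.

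Transcripts of neutrophils themselves were high in HDE mice 1 to 5 and low in HDE mouse 6. None of the 5 tested markers was called with all 10 mice (median log2 fold change 2.05, 1.49 with TMM). Without mouse 6, 5 of 5 were called, beside 41.8% of all tested genes. S100a8, a calcium-binding protein abundant in neutrophil cytoplasm, had 10463.9, 3763.9, 5967.3, 9038.5 and 16797.8 scaled counts in HDE mice 1 to 5, 466.1 in mouse 6 and 910.8, 1216.6, 2762.3 and 1391.1 in saline mice. The 5 values span more than 4-fold, with mouse 5 highest and mouse 2 lowest, and all lie above the saline mice. Its log2 fold change was 2.30 ± 0.76 with 10 mice (adjusted p = 0.0638) and 2.55 ± 0.48 without HDE mouse 6 (adjusted p = 0.00125). S100a9, its binding partner, had 1683.8 to 14770.5 scaled counts in HDE mice 1 to 5, of which mouse 2 at 1683.8 lay just below the highest saline mouse at 1724.6. Csf3r, the G-CSF receptor, rose 4.64-fold (adjusted p = 8e-05) and Cxcr2, the receptor for Cxcl1 and Cxcl3, 4.91-fold (adjusted p = 0.00034), both without HDE mouse 6. Of 9 tested chemokine receptors, 0 were called with all 10 mice and 4 without HDE mouse 6, beside 41.8% of all genes, and with TMM and without that mouse 2 were higher and 3 lower. The 4 were Cxcr2, Ccr9, Cxcr4, which holds leukocytes in bone marrow (1.92-fold, adjusted p = 0.00535), and Ccrl2, a receptor that binds chemerin (2.88-fold, adjusted p = 0.00135). The 7 neutrophil markers on the panel summed to 6767.1 to 34002.9 scaled counts in HDE mice 1 to 5 and 984.9 in HDE mouse 6, against 2138.7 to 5156.5 in saline mice.

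Beside the neutrophil markers stand those of other cell types. Of 9 tested monocyte and macrophage markers, Cd14 rose with all 10 mice and Cybb, the catalytic subunit of the phagocyte oxidase, was called without mouse 6 (2.16-fold, adjusted p = 0.0108), and the median log2 fold change of the list was -0.03 with 10 mice and -0.47 with TMM. With TMM and without HDE mouse 6, 1 of the 9 was higher and 5 were lower, with a median of -0.53, beside 23.2% higher and 18.6% lower among all tested genes. The 4 alveolar macrophage markers on the panel summed to 3281.0 to 6818.1 scaled counts in HDE mice and 6285.2 to 8530.8 in saline mice, most of it Cd36. The tested members went different ways with 10 mice, with log2 fold changes of -0.75 for Cd36, 0.91 for Marco and 0.06 for Itgax. The sum is therefore no measure of the number of these cells. The epithelial markers summed to 10980.0 to 29088.8 in HDE mice and 19732.5 to 32651.5 in saline mice, and of the 7 tested Pigr alone rose in both comparisons. With TMM, 0 of the 7 were called with 10 mice, and 1 was higher and 1 lower without HDE mouse 6. Their part in the results was not tested.

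On vessels and leukocytes, 2 of 19 adhesion genes rose with all 10 mice and 6 without HDE mouse 6, beside 13.6% and 41.8% of all tested genes. Their median log2 fold change was 0.34 (-0.09 with TMM), below that of all tested genes. With TMM and without HDE mouse 6, 4 were higher and 2 lower. Sele, the E-selectin that cytokine-treated endothelium displays to rolling leukocytes, had 164.5, 82.5, 129.3, 219.7 and 205.1 scaled counts in HDE mice 1 to 5, 8.3 in mouse 6 and 34.6, 35.2, 10.2 and 7.5 in saline mice. Sele rose 6.33-fold with all 10 mice (log2 2.66 ± 0.81 SE, edgeR adjusted p = 0.0486) and 7.63-fold without HDE mouse 6 (adjusted p = 0.00077). None of its saline values was above the negative control level, and of the HDE mice 4 were. HDE mouse 2, at 82.5, lay under the level of its own lane, 97.5. Cd44, a hyaluronan receptor, had 2910.7 to 4762.4 scaled counts in HDE mice 1 to 5, 1176.7 in mouse 6 and 1090.8 to 1635.6 in saline mice (2.60-fold, adjusted p = 0.0305). Vcam1, which binds integrin on monocytes and lymphocytes, and Itgam, the integrin chain of myeloid cells, were called without HDE mouse 6 (3.41-fold and 2.31-fold, adjusted p = 0.00128 and 0.0117). Icam1, the ligand of leukocyte integrins, was not called in either comparison: it had 5053.6, 3037.7, 1809.1, 4329.5 and 3189.8 scaled counts in HDE mice 1 to 5, 790.8 in mouse 6 and 2445.3, 2272.8, 682.9 and 721.4 in saline mice. Its saline values split by cartridge, with mice 1 and 2 above HDE mouse 3. Icam2, which endothelium expresses at rest, had a log2 fold change of -0.67 ± 0.28 (adjusted p = 0.115).

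Costimulatory and checkpoint genes gave 3 of 6 tested genes with all 10 mice and 5 of 6 without HDE mouse 6 (median log2 fold change 1.41, 0.90 with TMM). The shares of all tested genes were 13.6% and 41.8%. Cd83, a marker of mature dendritic cells, had 1202.5, 915.0, 961.0, 1359.2 and 863.8 scaled counts in HDE mice 1 to 5, 110.4 in mouse 6 and 127.8, 154.1, 143.6 and 140.2 in saline mice. Cd83 was 6.37-fold higher with the 10 mice (log2 2.67 ± 0.55 SE, edgeR adjusted p = 0.0214), and without HDE mouse 6 it was 7.49-fold higher (adjusted p = 2.8e-06). Cd80, a ligand of CD28 and CTLA-4, had 149.0 to 270.1 scaled counts in HDE mice 1 to 5, 24.8 in mouse 6 and 22.9 to 32.1 in saline mice (6.45-fold, adjusted p = 0.0214). Its saline values were above the negative control level in 2 of 4 mice, and with the background subtracted its log2 fold change of 2.69 became 4.64. Cd274, which encodes the inhibitory ligand PD-L1, rose 3.64-fold (adjusted p = 0.0367). Cd86, the other CD28 ligand, and, from the TNF receptor family, Cd40, the receptor for T cell help, and Fas, a death receptor, were called without HDE mouse 6, at 2.23-fold, 2.31-fold and 2.82-fold (adjusted p = 0.00267, 0.00154 and 0.00176).

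Of 18 interferon-induced genes, 2 rose with all 10 mice, near the 13.6% of all genes, and 13 rose without HDE mouse 6, beside 41.8% of all genes. With TMM and without HDE mouse 6, 7 of the 18 were higher and 1 lower. Cxcl10 is 1 of the 2 called with all 10 mice, and Ifitm1, a membrane protein that restricts viruses, rose 3.44-fold (adjusted p = 0.0366). Irf1, a transcription factor of interferon responses, had 2257.8, 2003.0, 2250.2, 3939.5 and 2857.0 scaled counts in HDE mice 1 to 5, 660.7 in mouse 6 and 1032.5, 842.1, 1046.4 and 1013.8 in saline mice, a log2 fold change of 1.24 ± 0.40 with 10 mice (adjusted p = 0.0587) and 1.44 ± 0.25 without HDE mouse 6 (adjusted p = 0.00068). Of 9 JAK and STAT genes, which relay interferon and cytokine signals, 0 were called with all 10 mice and 7 without HDE mouse 6, beside 13.6% and 41.8% of all genes. Without HDE mouse 6 and with TMM, 2 were called. Jak2 and Tap1, which encode a receptor kinase and a peptide transporter for MHC class I, were higher at 2.24-fold and 2.40-fold without HDE mouse 6 (adjusted p = 0.00052 and 0.00033), and were not called with all 10 mice. Of MHC class I genes 0 of 11 were called with all 10 mice and 6 of 11 without HDE mouse 6, beside 13.6% and 41.8% of all genes. These 6 were led by H2-Q10 (3.85-fold, adjusted p = 8.7e-05), whose probe was not tested against its close relatives. With TMM and without HDE mouse 6, 2 of the 11 were higher and 2 lower. Of MHC class II genes 0 of 8 and 1 of 8 were called, the 1 being H2-Eb1 (1.84-fold, adjusted p = 0.0121), and their median log2 fold change of 0.12 with 10 mice was -0.27 with TMM, which without HDE mouse 6 called 0 higher and 2 lower.

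**Figure D3:**
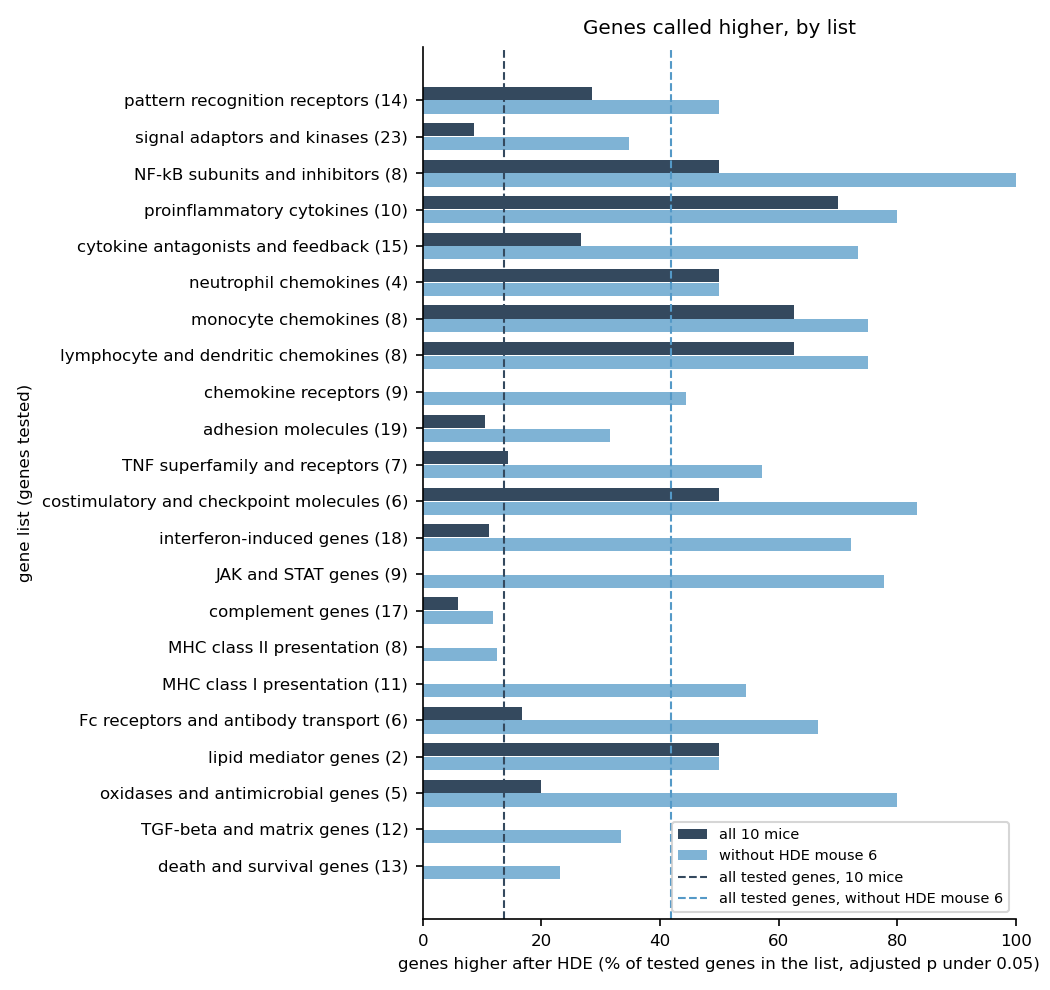
Bars give the percentage of tested genes in each list called higher after HDE (edgeR adjusted p under 0.05), dark with all 10 mice and light without HDE mouse 6, with the number of tested genes in parentheses and dashed lines at 13.6% and 41.8% for all tested genes. Cytokine and chemokine lists stand above the dark line, at 7 of 10 for the cytokines, and the interferon, JAK and STAT and MHC class I lists appear mainly in the light bars. Some tested genes passed the count filter only through high HDE values.

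The 3 called decreases came from the complement, antibody transport and oxidase lists. In the complement list 1 of 17 genes rose and 1 fell with all 10 mice, 2 rose and 1 fell without HDE mouse 6, and with TMM and without that mouse 1 was higher and 5 were lower. Of all tested genes, 13.6% rose with all 10 mice and 41.8% without HDE mouse 6. Cfb, factor B of the alternative pathway, had 1173.8, 1175.7, 517.2, 1061.8 and 875.9 scaled counts in HDE mice 1 to 5, 347.0 in mouse 6 and 443.4, 260.7, 150.7 and 125.3 in saline mice. The log2 fold change was 1.81 ± 0.47 (SE, 3.51-fold, edgeR adjusted p = 0.0287) with all 10 mice and 1.98 ± 0.40 (3.94-fold, adjusted p = 0.00184) without HDE mouse 6. Hc, complement component C5, had 574.1, 603.8, 358.8, 580.7, 702.9 and 527.4 scaled counts in HDE mice 1 to 6 and 1178.3, 1187.6, 801.5 and 826.8 in saline mice. All 6 HDE mice lay below all 4 saline mice, which was so for 5 of the 354 tested genes (1.41%). Hc fell by 0.84 ± 0.24 (SE) on the log2 scale with all 10 mice (edgeR adjusted p = 0.0366) and by 0.82 ± 0.23 without HDE mouse 6 (adjusted p = 0.0125). Fcgrt, the neonatal Fc receptor that recycles IgG and albumin, had 148.6, 188.9, 101.4, 134.9, 159.9 and 268.8 scaled counts in HDE mice 1 to 6 and 441.9, 319.7, 317.1 and 388.3 in saline mice. Fcgrt fell by 1.13 ± 0.28 (SE) on the log2 scale with all 10 mice (edgeR adjusted p = 0.0287) and by 1.32 ± 0.23 without HDE mouse 6 (adjusted p = 0.00069). Mouse 6 was the highest of the HDE mice for this gene and still below saline. It lay below every saline mouse in 66.7% of all tested genes, so this place is not particular to Fcgrt, Hc or Nox4. Nox4, an NADPH oxidase of vascular and mesenchymal cells, had 198.4, 271.3, 265.0, 503.0, 574.2 and 573.4 scaled counts in HDE mice 1 to 6 and 1133.2, 584.5, 1033.0 and 1149.5 in saline mice. Nox4 fell by 1.29 ± 0.35 (SE) on the log2 scale with all 10 mice (edgeR adjusted p = 0.0347) and by 1.43 ± 0.34 without HDE mouse 6 (adjusted p = 0.00515). The groups did not overlap, but saline mouse 2 at 584.5 lay close to HDE mice 5 and 6. With TMM, Hc alone of these kept its call, while the log2 fold changes of Fcgrt and Nox4 were -1.34 and -1.55. A further 3 genes fell without HDE mouse 6, the surface enzymes Nt5e (CD73, which makes adenosine) and Mme (neprilysin, which degrades peptides) and the efflux pump Abcb1a, at 0.499, 0.602 and 0.586 of the saline level in the order named (adjusted p = 0.0141, 0.0225 and 0.0439).

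Pigr, which carries IgA and IgM across epithelium, was among the genes that rose, with 1814.3, 1899.2, 617.4, 1185.8 and 1426.0 scaled counts in HDE mice 1 to 5, 476.7 in mouse 6 and 288.6, 527.6, 379.9 and 403.2 in saline mice. Pigr rose 3.09-fold with all 10 mice (log2 1.63 ± 0.42 SE, edgeR adjusted p = 0.0287) and 3.47-fold without HDE mouse 6 (adjusted p = 0.00109). Ptafr, the receptor for platelet-activating factor, had 1450.7, 1064.0, 959.7, 1425.4 and 782.4 scaled counts in HDE mice 1 to 5, 47.2 in mouse 6 and 120.2, 90.0, 64.4 and 82.5 in saline mice. Ptafr was 10.7-fold higher with the 10 mice (log2 3.42 ± 0.74 SE, edgeR adjusted p = 0.0214), and without HDE mouse 6 it was 12.8-fold higher (adjusted p = 2.8e-06). Ptgs2, the inducible cyclooxygenase, overlapped between groups and was not called in either comparison, with 506.2, 340.5, 218.1, 420.1 and 391.2 scaled counts in HDE mice 1 to 5, 221.3 in mouse 6 and 186.4, 338.3, 135.8 and 173.0 in saline mice (log2 fold change 0.75 ± 0.35, adjusted p = 0.146). Without HDE mouse 6 it stood at 0.85 ± 0.32 (adjusted p = 0.0504), and without that mouse it was called higher with cartridge as a block (0.94, adjusted p = 0.0137), on cartridge 2 alone (1.15, adjusted p = 0.0416) and with HDE mouse 3 left out too (1.00, adjusted p = 0.0157), but not with TMM (0.28, adjusted p = 0.478). Ncf4, a cytosolic subunit of the phagocyte oxidase, rose 2.52-fold (adjusted p = 0.0366). Fcgr2b, the inhibitory receptor for IgG, was called without HDE mouse 6 (2.79-fold, adjusted p = 0.00109).

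The lists left 5 called genes without a group. Csf2rb, the shared receptor chain for GM-CSF, rose 3.24-fold, Lilrb4, an inhibitory receptor of myeloid cells, 3.29-fold, Tmem173, the adaptor STING of cytosolic DNA sensing, 2.59-fold and Tagap, a GTPase-activating protein of lymphocytes, 1.94-fold, with adjusted p = 0.0305, 0.0338, 0.0370 and 0.0484. The last is Fkbp5, a cochaperone of the glucocorticoid receptor that glucocorticoids induce, which rose 4.51-fold (adjusted p = 0.0460). It had 255.7, 513.4, 1745.7, 1099.1 and 681.8 scaled counts in HDE mice 1 to 5, 144.2 in mouse 6 and 196.9, 172.8, 92.6 and 193.4 in saline mice. Its order among the mice differed from that of Il1b. Fkbp5 was highest in HDE mouse 3 and lowest in HDE mouse 1 of the first 5, whereas Il1b was lowest in mouse 3 among these.

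T cell and thymocyte genes were highest in HDE mouse 3. Of 10 tested T cell markers 0 rose with all 10 mice (median log2 fold change 2.14), and 4 were called without HDE mouse 6, near the 41.8% of all tested genes. The 4 were Cd3d, Cd4, Lck and Cd3eap, which despite its name encodes a subunit of RNA polymerase I. None of the 10 was called with TMM and without HDE mouse 6, and 1 was with cartridge as a block and without that mouse. With HDE mice 3 and 6 both left out, 1 of the 10 was called and the median log2 fold change was 0.71, against 2.37 without HDE mouse 6 alone. Of 7 thymocyte markers 0 and 1 were called, the 1 being Ccr9, and 0 with HDE mice 3 and 6 both left out. Lck, the kinase of the T cell receptor, had 121.5, 577.2, 3189.6, 212.6, 81.5 and 61.3 scaled counts in HDE mice 1 to 6 and 99.2, 121.0, 83.2 and 64.1 in saline mice, and Cd3d, a chain of that receptor, had 66.4, 276.6, 1455.4, 111.8, 51.3 and 35.4 in the HDE mice and 60.1, 70.3, 45.5 and 62.1 in saline mice. In both, mouse 3 was the highest, mouse 2 the next and mouse 4 the third, the same order as for Rag1. Ccl25, the thymic chemokine, had 37.7, 109.1, 1241.1, 83.5, 35.2 and 37.3 scaled counts in HDE mice 1 to 6 and 58.6, 63.1, 38.5 and 32.8 in saline mice, and Ccr9, its receptor, had 40.7, 311.2, 835.4, 42.4, 21.1 and 9.0 in the HDE mice and 39.1, 47.6, 11.8 and 10.4 in saline mice. Rag1, Ccl25 and Ccr9 reached the average of 82 scaled counts only with HDE mouse 3 counted. Leaving out HDE mice 3 and 6 together gave 147 genes higher (41.5%) and 7 lower (1.98%), among them all 48 and all 3 called with 10 mice.

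**Figure D4:**
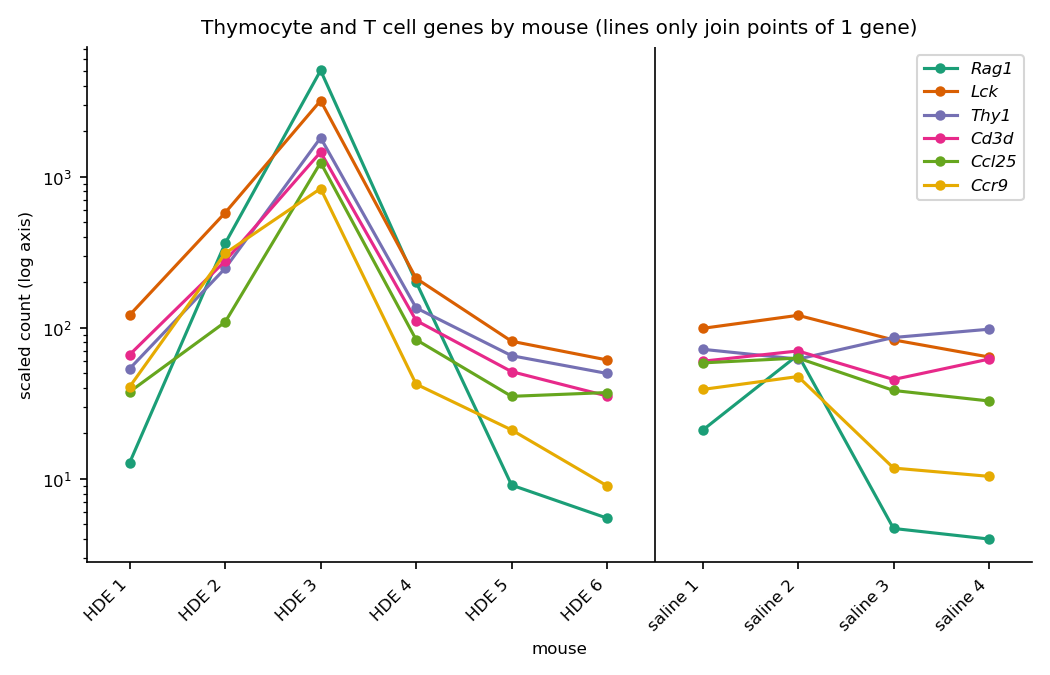
Scaled counts (log axis) of 6 thymocyte and T cell genes in each mouse, HDE mice left of the line and saline mice right of it, with lines joining the points of 1 gene only to guide the eye. All 6 genes peak in HDE mouse 3, with Rag1 at 5054.5, and are next highest in HDE mouse 2, while HDE mice 1, 5 and 6 lie near the saline mice.

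The same exposure was given to the mice on the DHA diet, and the difference between the responses was tested as an interaction in a model of all 4 groups. For the 48 higher genes the median log2 fold change was 2.41 on the control diet and 2.77 on the DHA diet, all 48 lay above 0 on the DHA diet, and 47 were called there. The interaction was called for 0 of 354 genes (0.0%, lowest adjusted p = 0.997 in edgeR), and 9 genes passed when p was not adjusted (2.54%). These 354 genes were chosen by their average in the 10 control diet mice, so genes high mainly on the DHA diet did not enter. Msr1, Clec5a and Ccl12 rose in the DHA mice alone (log2 fold change 2.16, 1.55 and 1.75) and were not tested for the interaction. The counts by direction below carry the same limit. Among the 48, the difference of the log2 fold changes (control diet minus DHA diet) had a median of -0.45 and ran from -1.21 to 1.29, with 35 of the 48 below 0 and a median SE of 0.76. Without HDE mouse 6 the median was -0.24, the range -0.97 to 1.53, and 30 of the 48 lay below 0. The lowest unadjusted p among the 48 was 0.184. Both contrasts have their own saline mice. Of the 9 genes, 8 had the larger response on the control diet, among them Rag1, Lck, Cd3d, Cd3e, Thy1, Ccl25 and Ccr9, and none of these 8 passed without HDE mouse 3, which left 0 higher and 1 lower. The 1 gene with the smaller response on the control diet was Marco, at a difference of -1.36 ± 0.62 (SE, unadjusted p = 0.040 and adjusted p = 0.997 in edgeR). Without HDE mouse 6 the interaction was again called for 0 genes in edgeR (lowest adjusted p = 0.750), and 15 genes had a larger and 1 a smaller response on the control diet when p was not adjusted.

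**Figure D5:**
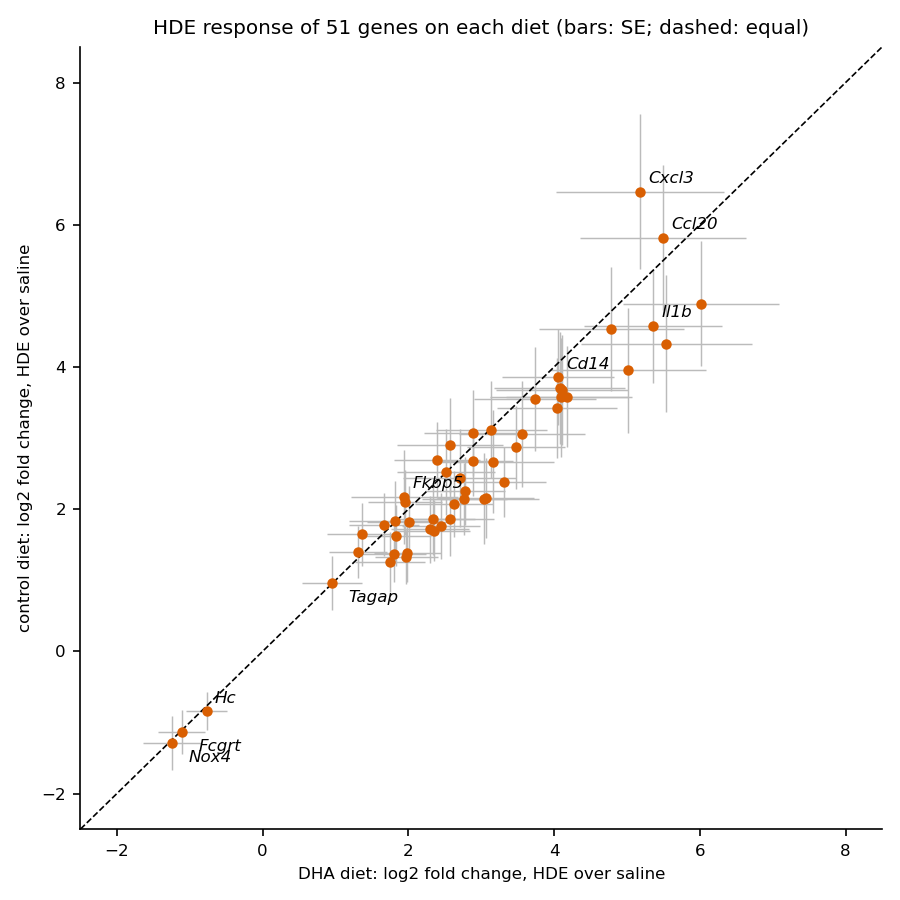
Log2 fold change after HDE of the 51 genes called on the control diet (vertical axis) against the same contrast on the DHA diet (horizontal axis), from 1 model of the 4 groups, with bars for 1 SE and a dashed line where both are equal. The difference between the axes exceeds 1 SE in 10 of the 51 genes, and the 3 lower genes Nox4, Fcgrt and Hc lie below 0 on both axes.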

How the data were processed

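Raw counts per probe and lane were deposited by the authors without normalization, and these counts were tested here. The normalized signal values in a further table had been scaled to housekeeping genes by the authors in nSolver before deposit, equalled the scaled counts used here times 1.1805, and served as an alternative. Each lane was divided by its housekeeping level, from Eef1g, Oaz1, Ppia and Rpl19, and 193 of 547 genes averaging under 82 scaled counts were left out. Depth limits the low genes, since the negative control probes of a lane set the level below which a count carries no information. No pair of lanes agreed within sampling noise (lowest chi-square per degree of freedom 10.9 over 45 pairs).

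The robust quasi-likelihood test of edgeR 4.0.16 (R 4.3.3) compared 6 HDE with 4 saline mice, with the scaling as an offset, no covariate, and Benjamini-Hochberg adjustment over 354 genes, called at 0.05. Every adjusted p is two-sided and from edgeR unless another tool is named. The difference between diets was an interaction in a model of all 20 mice, over the same 354 genes. Alternatives used DESeq2 1.42.0, limma 3.58.1, an ordinary linear model, other scalings and filters, single cartridges and left-out mice. The cartridge block, cartridge 2 alone, TMM and each saline mouse left out, all without HDE mouse 6, were chosen after seeing the data. The scripts were tested on simulated counts with known changes.

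The members and gene lists were chosen with earlier results of these data known. The rule for named genes took the 12 higher and 8 lower called genes with the smallest p, the 5 with the largest fold in each direction, the 3 tested genes of each list with the smallest p, and genes that the study measured as protein or named for the diet. It took 94 genes, not all of them named here, and 32 of the 97 genes followed through the alternatives were chosen outside it, after their values were seen. Some genes of the panel are not reported here. By symbol, 531 of the 547 genes matched RefSeq.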

Additional observations from a re-analysis of the deposited data

Results flagged for a closer look

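Of 195 groups of values, 1 for each of the 97 named genes in the HDE mice and in the saline mice and 1 for a summary, 55 had a highest or lowest mouse that stood apart by Dixon's 95% critical value. Chance flags about 1 in 20 independent groups. These groups share the same mice, and many genes were taken for their small p, so that rate cannot be set against the 55. In 48 genes this was HDE mouse 6 at the low end of the HDE mice. The values below are its scaled counts.

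The sensors and their kinases stood at 253.5 for Cd14, 26.3 for Clec4e, 19.7 for Trem1, 77.4 for Marco, 240.5 for Irak2, 194.9 for Syk and 164.3 for Myd88. NF-κB genes stood at 134.4 for Tnfaip3, 297.1 for Nfkbia, 275.5 for Nfkb2 and 153.7 for Relb. Cytokines, growth factors and antagonists stood at 91.6 for Il1b, 20.4 for Il1a, 25.9 for Tnf, 13.0 for Il6, 312.8 for Csf1, 52.7 for Il1rn, 143.5 for Tnfrsf1b and 76.6 for Socs3. Chemokines stood at 12.6 for Cxcl3, 27.5 for Cxcl1, 25.9 for Ccl2, 30.3 for Ccl3, 8.6 for Ccl4, 6.7 for Ccl7, 14.1 for Ccl20, 62.5 for Ccl22, 20.4 for Cxcl10 and 38.5 for Ccl19. Receptors and adhesion molecules of leukocytes and vessels stood at 16.9 for Cxcr2, 46.8 for Csf3r, 1176.7 for Cd44, 8.3 for Sele, 46.0 for Vcam1 and 47.2 for Ptafr. Costimulatory genes stood at 110.4 for Cd83, 24.8 for Cd80, 38.5 for Cd86, 106.9 for Cd274 and 71.5 for Cd40. Interferon and antigen presentation genes stood at 264.1 for Ifitm1, 207.1 for Tap1, 16.9 for H2-Q10 and 414.6 for Jak2. The other genes stood at 83.7 for Ncf4, 141.9 for Csf2rb, 79.0 for Tmem173 and 80.2 for Tagap. The summary was the median difference in log2(scaled count + 1) from the saline mean, taken for each HDE mouse over the genes called higher without that mouse. It was -0.56 in HDE mouse 6.

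A saline mouse or HDE mouse 3 stood apart in 6 genes. Ccl25 had 1241.1 scaled counts in HDE mouse 3, above the other HDE mice. Saline mouse 2 was high for Ccl2, at 142.8, and low for Ccrl2, Irf1 and Nox4, at 123.1, 842.1 and 584.5. Saline mouse 1 was high for Icam2, at 2473.9. The causes were not tested.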

How the results depend on the processing

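With all 10 mice 48 genes were higher and 3 lower. Scaling and tool moved the lower calls to 5 with TMM, 24 with DESeq2 and its own size factors, and 7 with DESeq2 on the 4 housekeeping genes, which called 97 higher. On limma with the deposited normalized values and in an ordinary linear model there were 0 higher and 0 lower, against 89 and 72 higher and 11 and 15 lower when p was not adjusted. A filter of 82 scaled counts in every mouse, which tests 236 genes, gave 24 higher, 21 of them among the 48. The model of the 4 groups gave 85 higher. The cartridge block called 6 lower. Cartridge 1 alone gave 103 higher and 8 lower, and cartridge 2 alone gave 0 and 0. Leaving out 1 HDE mouse gave 13 (without HDE mouse 4) to 148 (without HDE mouse 6) higher and 0 to 6 lower, with 22 higher without mouse 1, 25 without mouse 2, 38 without mouse 3 and 32 without mouse 5. Leaving out any 1 saline mouse gave 0 higher and 0 lower with HDE mouse 6 kept. With HDE mouse 6 also left out, there were 141 higher and 5 lower without saline mouse 1, 132 and 6 without saline mouse 2, 122 and 4 without saline mouse 3 and 122 and 5 without saline mouse 4, fits that were added after seeing the data. Without HDE mice 3 and 6 there were 147 higher and 7 lower. Of the other comparisons chosen after seeing the data, all without HDE mouse 6, the cartridge block gave 155 higher and 12 lower, cartridge 2 alone 131 higher, and TMM 82 higher and 66 lower. The interaction with diet was called for 0 genes in all 24 alternatives run.

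Of 3246 values of the 97 named genes under alternatives, 509 lost a call, 371 gained one, and 3 changed sign, all of them Tlr4, at -0.30 with TMM, -0.29 with DESeq2 and its own size factors and -0.33 with TMM and without HDE mouse 6. The causes were not tested. No paired analysis was possible because the labels number no mice and the replicate numbers here only name them. Of the 48 higher genes, 4 were above the negative control level in no saline mouse and 9 in 1 to 3 of the 4.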
